A study of Homo sapiens with 2 samples.

Results

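Autophagy genes were compared between parental NCI-N87 cells and a TDM-1 resistant line of the same cells, with 1 array for each. NCI-N87 is a human line from a gastric carcinoma that carries an amplified ERBB2 gene, which encodes the receptor HER2. TDM-1 is the labels' spelling of T-DM1 (trastuzumab emtansine), an antibody against HER2 that carries a microtubule poison and releases it after uptake and breakdown in lysosomes. The parental cells are labelled untreated; the labels do not state the dose or length of selection, whether the resistant line is 1 clone or a pool, or whether the drug was present at harvest. Total RNA was hybridised to the Human Transcriptome Array, whose annotated rows each summarise a transcript locus. Some genes have more than 1 row. The genes were a list of 50 named for their known place in the pathway, and 49 of them had a row annotated to that gene alone, of 22411 genes so measured in all. None of the 49 had more than 1 such row. VMP1, which encodes an endoplasmic reticulum scramblase needed for phagophore growth, shares its row with the microRNA gene MIR21. That joint row was 15.6 on the parental array and 15.7 on the resistant one and was not assigned to VMP1.

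In autophagy, a kinase complex built on ULK1 starts the growth of a cup-shaped membrane, the phagophore, and a lipid kinase complex built on PIK3C3 marks it with phosphatidylinositol 3-phosphate. Lipid supply through ATG9 and ATG2 enlarges the membrane. A conjugation system related to ubiquitination attaches small proteins of the ATG8 family (the LC3 and GABARAP proteins) to it, and cargo receptors bind both cargo and ATG8 proteins. The closed autophagosome then fuses with lysosomes through SNARE proteins such as STX17 and the HOPS tethering complex. Much of the control of the pathway acts on proteins, which these arrays do not measure.

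All values below are on the deposited scale. No source states its base, and it was taken as log2, so every fold given rests on that reading. A difference is the value on the resistant array minus that on the parental one. A gene was called higher or lower when its difference was at least 1 (2-fold) and the larger of its values reached 5.79, the median of the larger values over all genes (the floor). With 1 array per group there were no replicates, so no difference could be set against the spread between cultures, and no p-value is given. Of 8 epithelial markers, 7 were measured and all reached the floor, at 10.9 to 17.3 on the parental array and 10.3 to 17.0 on the resistant one. The differences of 6 of the 7 were negative, and CDH1, which encodes E-cadherin, was called lower (15.1 and 13.97, -1.10); their part in the differences below was not tested. Of 14 leukocyte, fibroblast and endothelial markers, 13 were measured and none reached it, the highest value being 4.88.

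Most autophagy genes differed little between the arrays. Of the 49 measured genes, 48 reached the floor. Of these, 5 were called lower on the resistant array (PIK3C3, STX17, OPTN, MAP1LC3B and ATG5), 1 was called higher (TAX1BP1) and 42 neither. The 6 called genes are 12.5% of the 48, whereas 18.7% of the 11206 genes of the whole array that reached it were called. Genes called higher made up 2.08% of the autophagy genes against 9.58% of all genes, and genes called lower 10.4% against 9.12%. The share of lower genes was near the background, and the share of higher genes, below it, rests on 1 gene. In bulk RNA, a change in the share of cells that express a gene and a change in RNA per cell cannot be told apart. The median difference of the 48 genes was 0.03, against 0.01 over all genes, with 25 positive and 23 negative differences. Their quartiles were -0.40 and 0.23, against -0.40 and 0.43 over all genes. The absolute difference had a median of 0.34, against 0.41 over all genes, and it was under 0.5 for 31 of the 48 (64.6%, against 56.8%). Protein-coding genes alone gave a background of 10.5% higher and 9.4% lower. A threshold of 1.5-fold added ATG4C, ATG16L1, PIK3R4, VPS16 and VPS41 as higher and GABARAPL1, NBR1 and VPS18 as lower, which made 6 and 8 genes, against 19.3% and 18.0% of all genes. At 4-fold none was called in either direction, against 2.09% and 2.24% of all genes.

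**Figure D1:**
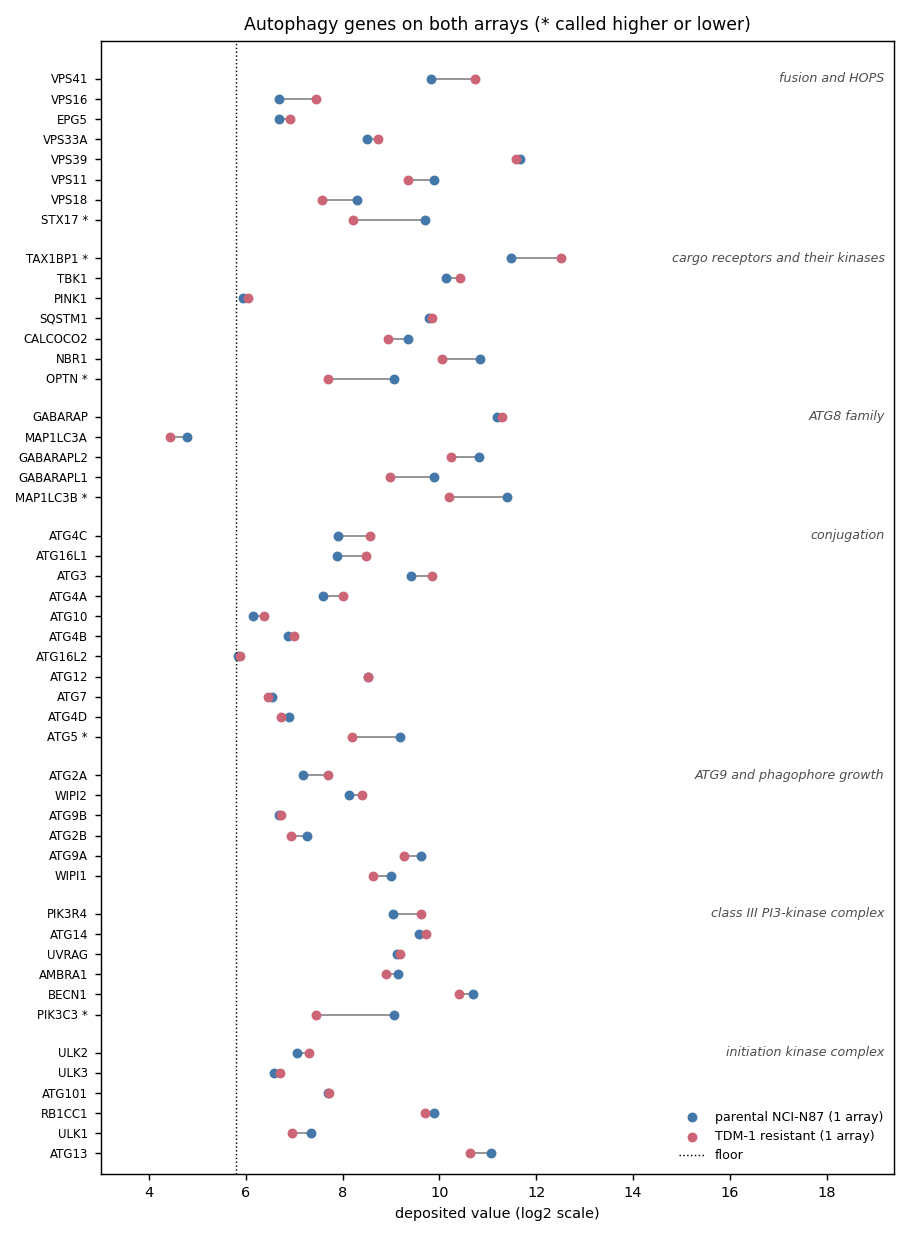
Deposited values (taken as log2) of the 49 measured autophagy genes on the parental array (blue) and the resistant array (red), 1 array each. Genes are grouped by role, with a dotted line at the floor of 5.79 and an asterisk on the 6 called genes. PIK3C3, STX17, OPTN, MAP1LC3B and ATG5 have the red point at least 1 to the left of the blue one, TAX1BP1 has it to the right, and MAP1LC3A lies left of the floor on both arrays.

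The initiation kinase genes were close to equal on both arrays. ULK1, the kinase that starts the pathway under nutrient control, was 7.35 on the parental array and 6.95 on the resistant one, a difference of -0.40. ATG13, the adaptor that the kinase phosphorylates, was 11.1 and 10.6 (-0.43), which was the largest absolute difference of the 6 genes. The scaffold gene RB1CC1 (also called FIP200) differed by -0.18 and ATG101, which stabilises ATG13, by 0.02. The related kinases ULK2 (0.23) and ULK3 (0.12) had positive differences. None of the 6 was called, and their median difference was -0.08.

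In the class III PI3-kinase complex, the catalytic subunit stood apart from its partners. PIK3C3 (also called VPS34), which makes the phosphatidylinositol 3-phosphate of the phagophore and of endosomes, was 9.06 on the parental array and 7.45 on the resistant one. Its difference of -1.61, or 3.06-fold, was the lowest of all 48 genes, and 3.74% of all genes that reached the floor had a difference as low or lower. Its regulatory subunit PIK3R4 was 9.04 and 9.63 (0.59), on the opposite side of 0. BECN1, the scaffold of the complex, was 10.7 and 10.4 (-0.30). ATG14, which directs the complex to the phagophore, differed by 0.14, UVRAG, which takes its place in the endosomal form, by 0.05, and AMBRA1, a regulator of BECN1, by -0.25. The 6 differences spanned 2.21, with 3 positive, 3 negative and a median of -0.10.

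Genes of lipid supply and phagophore growth held no called member. WIPI1, which reads phosphatidylinositol 3-phosphate, had the lowest difference of the role (8.99 and 8.63, -0.37) and ATG2A, a lipid transfer protein gene, the highest (7.17 and 7.70, 0.53). ATG9A, the scramblase carried on vesicles to the phagophore, was 9.62 and 9.27 (-0.35). ATG2B differed by -0.33, ATG9B, the paralogue of ATG9A, by 0.05, and WIPI2, which recruits ATG16L1, by 0.26. The 6 genes had a median of -0.14, with 3 positive and 3 negative differences.

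ATG5 was the one called gene of the conjugation system. ATG5, which is joined to ATG12 to form part of the enzyme that attaches ATG8 proteins to lipid, was 9.19 on the parental array and 8.19 on the resistant one. Its difference of -1.001 only just met the size rule. Neither of its partners was called. ATG12, the ubiquitin-like protein joined to ATG5, was 8.53 on both arrays (-0.002), and ATG16L1, which brings the pair to the membrane, was 7.89 and 8.49 (0.59). The enzyme genes ATG7 (E1-like, -0.09), ATG3 (E2-like for ATG8 proteins, 0.44) and ATG10 (E2-like for ATG12, 0.23) were not called. Of the ATG4 proteases, which trim ATG8 proteins and release them from lipid, ATG4C differed by 0.64, ATG4A by 0.40, ATG4B by 0.13 and ATG4D by -0.17. ATG16L2, a paralogue of ATG16L1, differed by 0.03. Of the 11 conjugation genes, 7 had a positive difference, and the median was 0.13.

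The ATG8 family had the lowest median of the 7 roles, at -0.74 over 4 genes at or above the floor. MAP1LC3B, which encodes LC3B, the usual marker of autophagosomes, was 11.4 on the parental array and 10.2 on the resistant one, a difference of -1.19 or 2.29-fold. GABARAPL1 was 9.89 and 8.99 (-0.90), short of the size rule, and GABARAPL2 was 10.8 and 10.2 (-0.57). GABARAP itself was 11.2 and 11.3 (0.11), the one positive difference of the family. MAP1LC3A did not reach the floor on either array, at 4.79 and 4.44. MAP1LC3B has a near-identical copy, MAP1LC3B2, whose row was 8.87 and 8.44 (-0.43, not called). Signal may be shared between such copies, so both rows are uncertain as measures of 1 gene.

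Cargo receptor genes differed in both directions. OPTN, which encodes optineurin, a receptor for damaged mitochondria and bacteria, was 9.05 on the parental array and 7.70 on the resistant one, a difference of -1.35 or 2.55-fold. TAX1BP1, a receptor for protein aggregates and bacteria with a domain related to that of CALCOCO2, was 11.5 and 12.5, a difference of 1.02 or 2.03-fold. OPTN had the lowest and TAX1BP1 the highest difference of the role, and that of TAX1BP1 was also the highest of all 48 genes. NBR1, an aggregate receptor, was 10.8 and 10.1 (-0.78), and CALCOCO2 (also called NDP52) was 9.35 and 8.94 (-0.41). SQSTM1, which encodes p62, the receptor that accumulates as protein when autophagy stalls, was 9.79 and 9.84 (0.05). TBK1, the kinase that phosphorylates OPTN, differed by 0.28, and PINK1, the kinase that marks damaged mitochondria, by 0.11. The 7 genes had a median of 0.05.

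At the fusion step STX17 was lower, while subunits of the tether went both ways. STX17, the SNARE protein gene of the autophagosome, was 9.71 on the parental array and 8.21 on the resistant one, a difference of -1.50 or 2.82-fold. EPG5, a tether that helps STX17 reach its partners, was 6.69 and 6.91 (0.23). None of the 6 HOPS subunit genes was called, although their differences spanned 1.64. VPS41 (0.91) and VPS16 (0.76) had the highest and VPS18 (-0.73) and VPS11 (-0.53) the lowest differences, with VPS33A at 0.23 and VPS39 at -0.07. VPS41, a HOPS subunit that binds the late endosome, was 9.83 and 10.7, just short of the size rule. The 8 genes of the role had a median of 0.08.

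**Figure D2:**
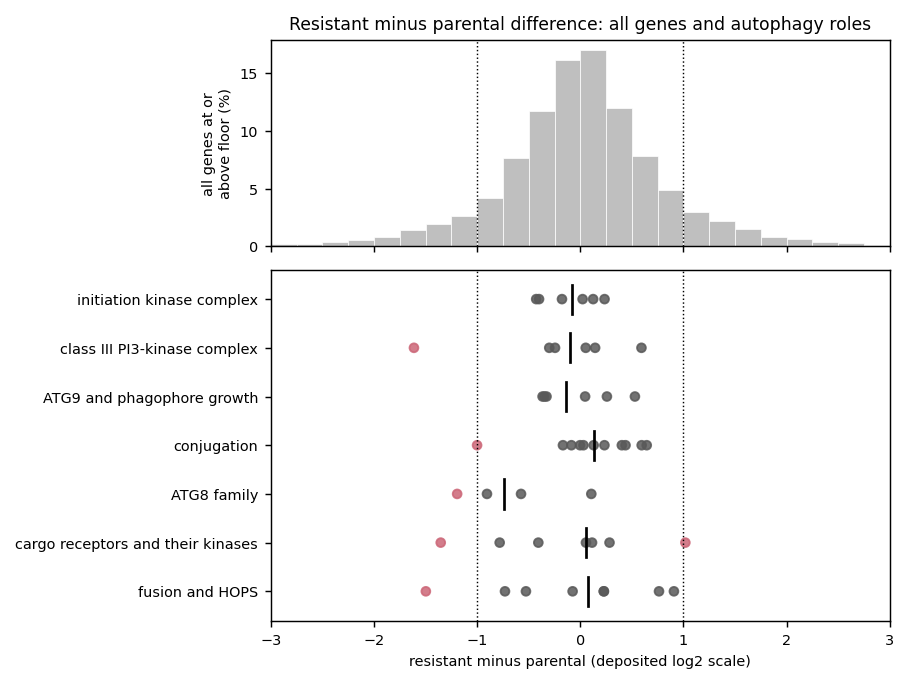
Top, percent of the 11206 genes that reached the floor by difference (resistant minus parental, log2 scale, bins of 0.25), with 178 genes beyond the plotted range; bottom, the 48 autophagy genes that reached the floor by role, called genes in red and the median of each role as a black bar. Medians lie between -0.14 and 0.13 for 6 roles and at -0.74 for the ATG8 family, and dotted lines mark the size rule at -1 and 1.

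Promoter windows were examined for the called genes. RefSeq tables of GRCh38.p14 gave the 250 bases before and 50 after the annotated gene start for 41 of the 50 genes, among them 5 of the 6 called ones; STX17 had no entry. The letters CACGTG (the E-box read by TFEB and its relatives, the same on both strands), GTAAACA (read by FOXO factors) and TGATGNAA (read by ATF4 with C/EBP partners) were searched on both strands. CACGTG was found in 6 of 41 autophagy windows (14.6%), against 10.2% of 8470 windows of genes at or above the floor and 7.43% of all 27305 windows. GTAAACA was found in 1 window, that of CALCOCO2, and TGATGNAA in none; over genes at or above the floor they were in 2.42% and 1.63%. None of the 5 called genes with a window held any of the motifs, and 5 windows are too few to set against these shares. The genes with CACGTG were ATG3, ATG14, ULK3, TBK1, VPS16 and VPS11, none of them called, with differences from -0.53 (VPS11) to 0.76 (VPS16). The windows of 3 genes called lower are printed first, from MAP1LC3B (chr16:87392086-87392385, plus strand), OPTN (chr10:13099832-13100131, plus strand) and PIK3C3 (chr18:41954984-41955283, plus strand). After them follow the windows with CACGTG found at 2 places, from ATG3 (chr3:112561913-112562212, minus strand) and VPS11 (chr11:119067568-119067867, plus strand). Each is written 5′ to 3′ along the gene, and capitals mark CACGTG.
MAP1LC3B: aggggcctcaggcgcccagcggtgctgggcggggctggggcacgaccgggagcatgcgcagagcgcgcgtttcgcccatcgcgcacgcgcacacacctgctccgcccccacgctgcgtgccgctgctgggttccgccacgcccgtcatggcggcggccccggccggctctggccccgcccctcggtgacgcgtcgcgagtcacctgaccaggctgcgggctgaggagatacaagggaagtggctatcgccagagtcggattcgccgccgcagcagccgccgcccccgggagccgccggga
OPTN: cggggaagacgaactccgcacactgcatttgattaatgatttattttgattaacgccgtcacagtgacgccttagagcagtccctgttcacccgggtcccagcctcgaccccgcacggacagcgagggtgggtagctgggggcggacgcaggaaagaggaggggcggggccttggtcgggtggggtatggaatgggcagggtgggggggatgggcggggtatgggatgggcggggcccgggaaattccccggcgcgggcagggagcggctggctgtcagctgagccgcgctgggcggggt
PIK3C3: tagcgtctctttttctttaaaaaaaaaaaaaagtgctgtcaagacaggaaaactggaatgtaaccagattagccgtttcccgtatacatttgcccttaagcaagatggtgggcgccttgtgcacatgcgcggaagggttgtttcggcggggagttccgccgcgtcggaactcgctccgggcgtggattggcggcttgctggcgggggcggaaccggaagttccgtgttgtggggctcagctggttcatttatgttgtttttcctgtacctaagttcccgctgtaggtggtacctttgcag
ATG3: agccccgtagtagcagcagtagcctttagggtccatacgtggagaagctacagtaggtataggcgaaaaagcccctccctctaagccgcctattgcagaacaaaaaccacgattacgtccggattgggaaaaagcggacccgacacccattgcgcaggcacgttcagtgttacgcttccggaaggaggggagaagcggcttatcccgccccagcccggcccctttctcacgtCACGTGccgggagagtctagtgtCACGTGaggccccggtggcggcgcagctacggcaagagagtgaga
VPS11: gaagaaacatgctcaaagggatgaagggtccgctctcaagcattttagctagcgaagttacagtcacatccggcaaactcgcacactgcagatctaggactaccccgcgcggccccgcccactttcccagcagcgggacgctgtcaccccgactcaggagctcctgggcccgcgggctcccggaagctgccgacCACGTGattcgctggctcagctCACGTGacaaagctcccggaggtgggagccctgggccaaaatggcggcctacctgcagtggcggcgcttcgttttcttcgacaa
The G and C content of the first 3 windows was 75.7% (MAP1LC3B), 66.3% (OPTN) and 52.3% (PIK3C3), against a median of 65.3% for genes at or above the floor. The windows of ATG5 (27.7%) and TAX1BP1 (33%) were far poorer in G and C, and the starts used in these cells were not measured. A match of letters is a description of the window and not a measured binding site.

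The difference of ATG5 was level with the median of its chromosomal neighbours, and that of TAX1BP1 lay on the same side of 0 as the median of its own. For each gene, the median difference of the nearest genes at or above the floor, up to 25 on each side in the gene order of GRCh38.p14, was taken as the level of its surroundings. ATG5 on chromosome 6 had a neighbour median of -0.98, and its own difference less that median was -0.02. Of its 6 nearest measured genes, 5 reached the floor, all with negative differences, and 4 were called lower (POPDC3, PREP, PRDM1 and CRYBG1). TAX1BP1 on chromosome 7 had a neighbour median of 0.38, which left 0.64. Its 2 near neighbours at or above the floor, HIBADH (2.36) and CREB5 (1.72), were both called higher. With neighbour medians subtracted, neither ATG5 nor TAX1BP1 met the size rule. Gene copy number was not measured, and its part in these differences was not tested.

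The other called genes differed from their surroundings. The neighbour median was -0.19 for PIK3C3 on chromosome 18, 0.08 for MAP1LC3B on chromosome 16, 0.12 for OPTN on chromosome 10 and -0.08 for STX17 on chromosome 9. Their differences less these medians were -1.42, -1.28, -1.47 and -1.41. With the medians subtracted, these 4 genes were called lower and none of the 48 higher, against 6.92% and 8.45% of all genes. Subtracting the median of the whole chromosome instead gave the same 4 lower genes and none higher, against 8.43% and 9.13%. None of the near neighbours of PIK3C3 reached the floor. Near OPTN, MCM10, a DNA replication gene, was called higher (2.08), so neighbours there lay on both sides of 0. Among the 6 nearest genes, 4 of those near STX17 and 3 of those near MAP1LC3B reached the floor. None of these few genes was called, where 18.7% of all genes were.

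Chromosome 7 held 4 of the autophagy genes, TAX1BP1, VPS41, WIPI2 and ATG9B, and all had positive differences, where the median of the chromosome was 0.52. Set against their own neighbours, TAX1BP1 (0.64) and VPS41 (0.56) remained above 0 and WIPI2 (-0.26) and ATG9B (-0.51) lay below it. PINK1 on chromosome 1 had the highest neighbour median of the 48 genes, 0.72, and its own difference of 0.11 lay 0.61 below it. Across the 48 genes, the difference correlated with the neighbour median with r = 0.40 (Pearson) and rho = 0.44 (Spearman). Over 11184 genes of the whole array the same correlations were 0.35 and 0.36. These are descriptions across genes, which share both arrays and, where neighbours overlap, the same medians.

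**Figure D3:**
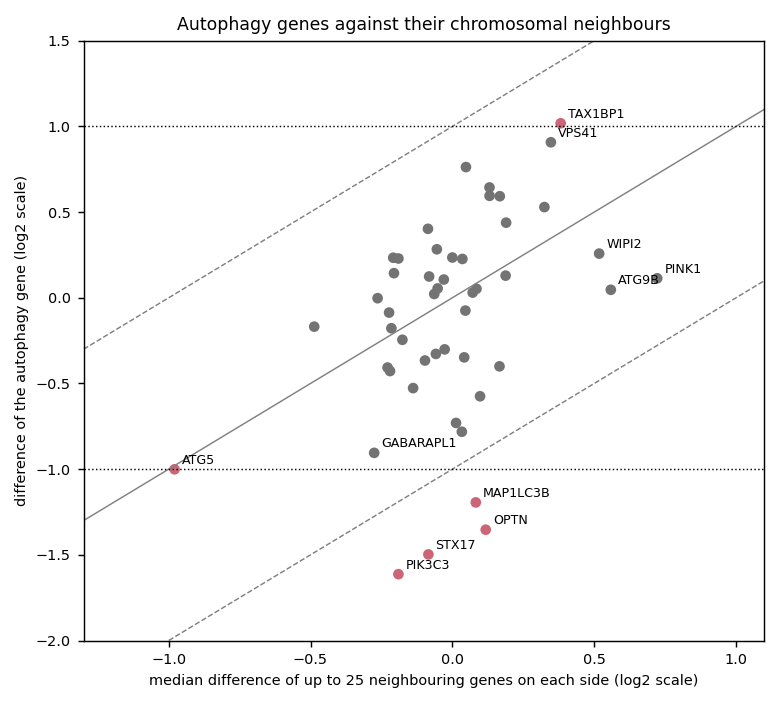
Difference of each of the 48 autophagy genes (y axis, log2 scale) against the median difference of up to 25 neighbouring genes on each side (x axis, log2 scale); the solid line marks equality, dashed lines a gap of 1 from it and dotted lines the size rule. ATG5 lies on the line of equality, TAX1BP1 within 1 of it, and PIK3C3, STX17, OPTN and MAP1LC3B lie more than 1 below it.

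**Figure D4:**
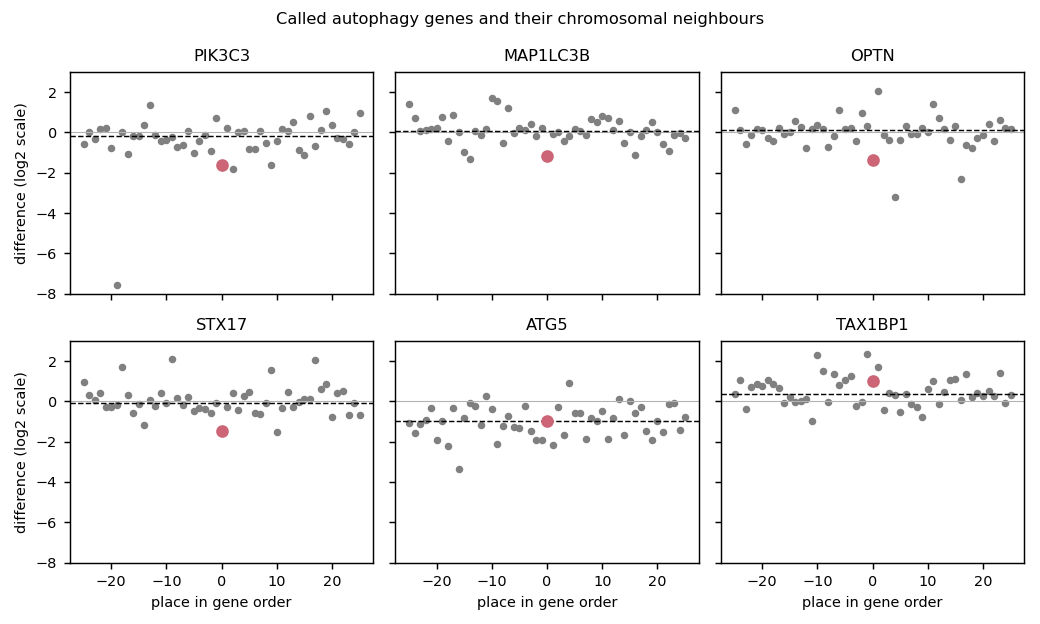
Differences (log2 scale) of the 6 called autophagy genes (red) and of those genes above the floor up to 25 places away on each side in gene order (grey), with the neighbour median dashed. Neighbours of ATG5 scatter around -0.98, level with the gene, whereas those of PIK3C3, MAP1LC3B, OPTN and STX17 scatter around -0.19 to 0.12, above it.

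Further genes of the pathway were called in both directions, in shares a little above those of all genes. Of a list of 59, 54 had a row of their own and 46 reached the floor; 5 were called higher and 6 lower, or 10.9% and 13.0% of the 46, against 9.58% and 9.12% of all genes. Together the 11 called genes were 23.9% of the 46, against 18.7% of all genes. The median difference of the 46 was -0.01.

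Transcriptional regulators of autophagy were called on both sides. Among the 4 that reached the floor, 1 was called higher and 2 lower, against 9.58% and 9.12% of all genes. MITF, a relative of the lysosomal gene regulator TFEB, was 5.02 on the parental array and 7.06 on the resistant one. Since the parental value lay under the floor, it was at least 2.41-fold higher. On the values as deposited, the difference of MITF was 2.04, or 1.81 less its neighbour median. TFEB itself did not reach the floor on either array (5.20 and 4.96), and TFE3, a further relative, was 8.52 and 8.05 (-0.48). The forkhead factor genes, whose products can switch on autophagy genes, were lower. FOXO3 was 9.52 and 7.64 (-1.88), and FOXO1 was 7.51 and 6.41 (-1.10). Both lie among genes that were lower as a group: the neighbour median was -0.998 for FOXO3 on chromosome 6 and -0.93 for FOXO1 on chromosome 13, which left -0.88 and -0.17.

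Upstream of the ULK complex, MTOR, the kinase that restrains autophagy when nutrients are plentiful, was 8.56 on the parental array and 10.4 on the resistant one, a difference of 1.85. RHEB, the GTPase that activates it, was 9.43 and 10.6 (1.15). With neighbour medians of 0.57 for each subtracted, MTOR kept 1.28 and RHEB 0.59. TSC1, which with TSC2 inhibits RHEB, was 10.8 and 9.85 (-0.99), just short of the size rule, and TSC2 differed by 0.20. The neighbour median of TSC1 was 0.05, and its difference less that median, -1.04, met the size rule. The mTORC1 subunit genes RPTOR (-0.06) and MLST8 (0.43) and the AMPK catalytic subunit genes PRKAA1 (-0.22) and PRKAA2 (0.26) were not called. Of the 12 genes of this upstream group that reached the floor, 2 were called higher and 0 lower, against 9.58% and 9.12% of all genes. Their median difference was 0.12.

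In phagophore growth, WDR45B, a relative of the WIPI genes, was 12.1 and 13.5 (1.37), while its paralogue WDR45 was 9.08 and 8.47 (-0.61). TMEM41B, a scramblase gene that acts with VMP1, was 9.16 and 10.2 (1.03), or 0.61 above its neighbours. This group had 9 genes at or above the floor, with 2 called higher and 0 lower, against 9.58% and 9.12% of all genes. Its median difference was -0.21, and 6 of the 9 differences were negative. Of 16 further genes of selective autophagy that reached the floor, 4 were called lower and none higher, against 9.12% and 9.58% of all genes, and 7 of the 16 had a negative difference. CALCOCO1, a receptor for the endoplasmic reticulum and the Golgi apparatus, was 10.3 and 8.90 (-1.38). FKBP8, a mitochondrial receptor gene, was 9.85 and 8.57 (-1.28), and SEC62, a receptor gene of the endoplasmic reticulum, was 10.4 and 9.25 (-1.13). KEAP1, the NRF2 inhibitor that p62 delivers to autophagosomes, was 9.36 and 8.28 (-1.07). Less their neighbour medians, CALCOCO1 was at -1.10 and FKBP8, SEC62 and KEAP1 were at -0.70, -0.71 and -0.61. Neither of the SNARE partners of STX17 measured here was called: SNAP29 differed by -0.09 and VAMP8 by -0.03. YKT6, a further fusion SNARE gene, differed by 0.44 and was not called.

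**Figure D5:**
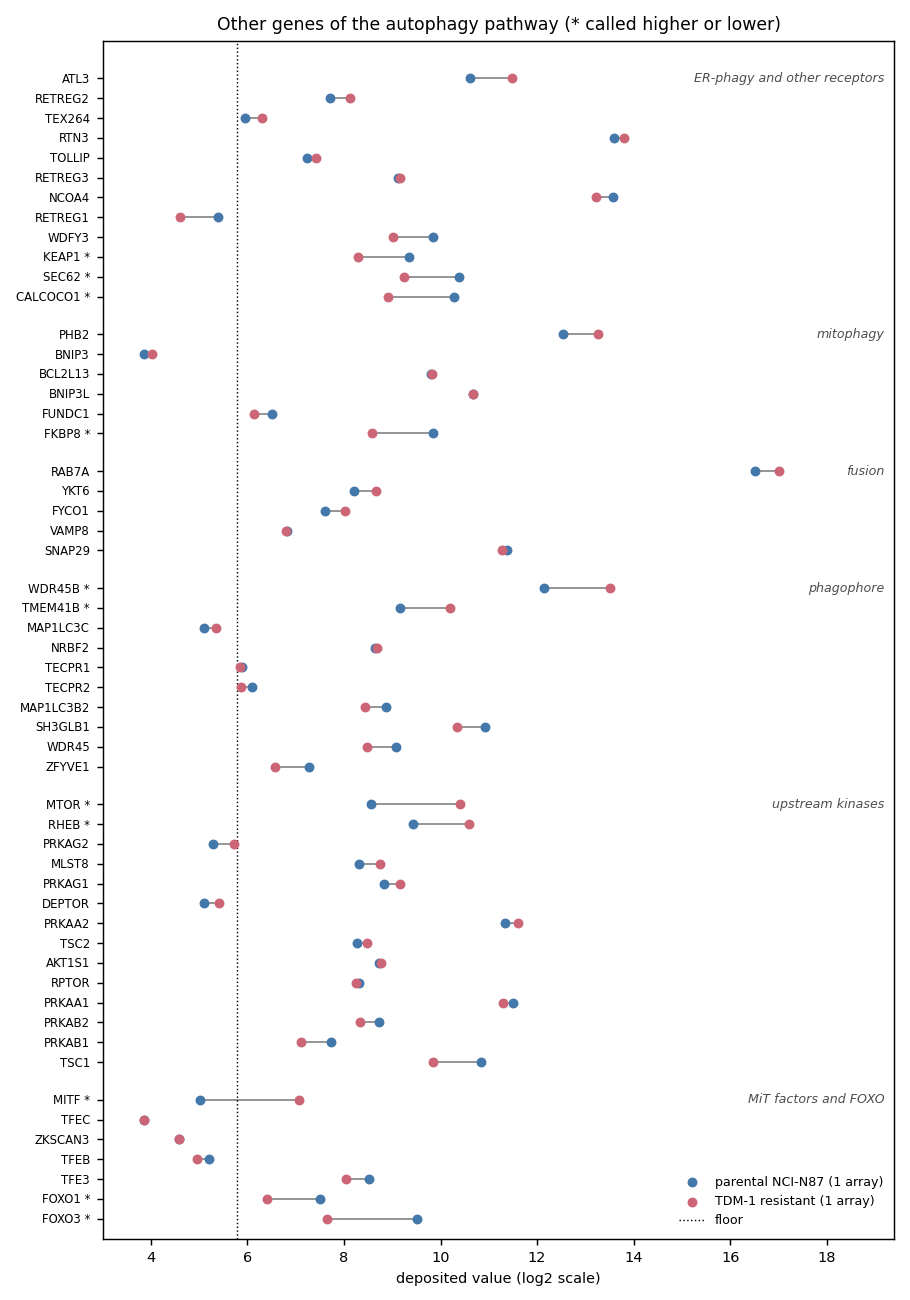
Deposited values (taken as log2) of the 54 other pathway genes on the parental array (blue) and the resistant array (red), 1 array each. Genes are grouped by role, with the floor of 5.79 dotted and an asterisk on the 11 called genes. MITF, MTOR, RHEB, TMEM41B and WDR45B have the red point to the right, and FOXO3, FOXO1, CALCOCO1, FKBP8, SEC62 and KEAP1 have it to the left.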

How the data were processed

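The data are 2 arrays of total RNA, 1 for each line. The authors deposited 70523 rows that came from Affymetrix Expression Console, per the submitters' processing notes. The sources used here do not give its summarisation method and version or the build of the rows. No source states the log base of the deposited values, which was taken as log2. Values reach 19.9 and 650 and 693 rows exceed 16, the ceiling of a 16-bit scanner, so a difference of 1 need not be exactly 2-fold in brightness. The column medians are 4.76 on both arrays.

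Rows were named through the platform annotation (23781 rows with 1 symbol, 1543 with several) and brought up to date through the gene table of GRCh38.p14, which served for names and gene order. The row with the highest mean was used per gene. The size rule, the floor and the neighbour medians are given with the results. The arrays carry no detection calls, so the floor is not a limit of detection, and precision is limited by the number of arrays. Full values are given for called genes and for the most different gene of each role without one. The members, gene lists and rules were chosen with earlier results of these data known; the promoter motifs were chosen after the values were seen. Work was done in Python 3.11.15 with pandas 2.3.3, numpy 2.4.6, statsmodels 0.14.6 and matplotlib 3.10.9.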

Additional observations from a re-analysis of the deposited data

How the results depend on the processing

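The alternatives were median centring, quantile normalization, loess centring (span 0.3), the mean of a gene's rows, no floor, a floor at the 75th percentile (8.42, which left 30 autophagy genes), thresholds of 1.5-fold and 4-fold, subtraction of chromosome or neighbour medians, and protein-coding genes as the background (10.5% called higher and 9.4% lower). PIK3C3, STX17, OPTN and MAP1LC3B were called lower under all but the 4-fold threshold. ATG5 was not called with quantile normalization (-0.97) or less its chromosome (-0.78) or neighbour median (-0.02), nor TAX1BP1 less its chromosome (0.50) or neighbour median (0.64). At 1.5-fold, 6 autophagy genes were higher and 8 lower, against 19.3% and 18.0% of all genes. Of the 46 other pathway genes at or above the floor, 12 were lower. At 4-fold, 0 autophagy genes were called in either direction, so 0 of the 6 calls were kept, against 2.09% and 2.24% of all genes. Among other pathway genes 1 was higher (MITF) and 0 lower. The call of MITF used its difference as deposited (2.04). Its parental value lay under the floor, and against the floor its fold was only bounded, at 2.41 or more. Less chromosome medians, 0 autophagy genes and 3 other pathway genes (MITF, MTOR and WDR45B) were higher, against 9.13% of all genes. Less neighbour medians these counts were 0 and 3, with the same 3 genes, against 8.45%. Of the 46 other pathway genes, 2 were then lower (CALCOCO1 and TSC1), against 6.92% of all genes. The median of the autophagy genes was -0.21 with the higher floor and -0.11 less chromosome medians. With the higher floor the role medians were -0.30 (initiation), -0.36 (ATG9 and phagophore growth), 0.44 (conjugation), -0.18 (receptors) and -0.075 (fusion). That floor left each difference unchanged and altered only which genes were counted. The initiation value then rested on ATG13 and RB1CC1 alone, and the ATG9 value on ATG9A and WIPI1 alone. Less neighbour medians they were 0.062 (initiation), -0.27 (ATG9 and phagophore growth), 0.26 (conjugation) and -0.18 (receptors), and less chromosome medians -0.22 (PI3-kinase) and -0.29 (ATG9 and phagophore growth). The ATG8 median was -0.57 without a floor, which adds MAP1LC3A. The cause of the shifts other than those from a changed floor was not tested. No paired analysis was possible because each group has 1 array.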

Other observations

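Some pathway genes share their row with another gene, and those rows were assigned to neither. The row of PLEKHM1, an adaptor between RAB7 and HOPS, and its microRNA genes was 9.41 on the parental array and 8.59 on the resistant one, and a further row with the same annotation was 9.65 and 8.83, so both differed by -0.82. The row of RUBCN, an inhibitor of the endosomal PI3-kinase complex, and MIR922 was 7.15 and 7.59 (0.45). The row of CCPG1, an endoplasmic reticulum receptor, and MIR628 was 10.02 and 9.78 (-0.23). The row shared by STBD1, a glycogen receptor, did not reach the floor on either array (4.60 and 5.41).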
